A study of Mus musculus with 6 samples.

Results

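The meiotic prophase genes are 40 genes chosen by symbol from the authors' table of 26329 genes, and all 40 had a row. They code for the synaptonemal complex, the meiotic cohesins and chromosome axis, the machinery of programmed DNA breaks, strand exchange and crossovers, the regulators of meiotic entry, the anchors of telomeres and 3 other germ cell factors. The data are 6 RNA sequencing libraries of mouse ovaries kept in culture. The 3 Control libraries came from ovaries cultured with the solvent DMSO, and the 3 ISRIB libraries from ovaries cultured with ISRIB in DMSO. ISRIB is a small molecule that binds the initiation factor eIF2B and relieves the block that the integrated stress response puts on translation. The sources used here do not give the strain and age of the cultured ovaries, the dose or the culture time. By its title, the study asks whether inhibition of this response sets primordial follicles, the resting oocyte store, growing through the mTOR pathway.

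In meiotic prophase the homologous chromosomes pair, are joined along their length by the synaptonemal complex, and exchange DNA through breaks that the cell makes and repairs itself. In the mouse ovary the germ cells enter meiosis before birth, finish recombination around birth, and then rest in a prolonged prophase arrest as the oocytes of primordial follicles. Transcripts of this program in a cultured ovary are therefore expected mostly in oocytes, although Brca2, Trip13, Mlh3 and Ythdc2 are also expressed in other cells.

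Levels are in FPKM as the authors gave them, fragments counted per kilobase of a gene and adjusted for library size, and whole reads worked back from them gave totals of 34474821 to 38002135 reads per library. The general germ cell markers were present in every library. Ddx4, a germ cell RNA helicase, had 15.96, 16.2 and 15.9 FPKM in Control and 16.2, 16.6 and 15.8 in ISRIB. Dazl, an RNA-binding protein of germ cells, had 16.3, 17.0 and 16.4 FPKM in Control and 16.02, 17.1 and 13.7 in ISRIB. Figla, an oocyte transcription factor, had 32.5, 37.2 and 34.7 FPKM in Control and 39.5, 40.6 and 32.7 in ISRIB. The groups overlapped for these 3. Of the whole list of 17 general oocyte markers, 6 were higher in ISRIB and 11 lower (64.7%, against 48.2% of all genes tested). Their median log2 fold change was −0.02, from Tdrd9 at −0.40 to Oosp1 at 0.42. At an unadjusted p under 0.05 in limma 3 were higher and 3 lower, where 8.71% and 7.73% of all genes tested were. The groups did not overlap for 5 of the 17, with 2 above and 3 below. Over all genes tested 22.8% did not, with 10.8% above and 12% below. Of 13 markers of growing oocytes 11 were higher and 2 lower (15.4%, against 48.2% of all genes tested), with a median of 0.19. In 5 of them all ISRIB libraries lay above (10.8% of all genes tested), and 6 were higher at an unadjusted p under 0.05 (8.71%). No marker of either list passed the limma threshold. Gdf9 and Zp3 are on both lists, so the list of 17 also holds markers of growing oocytes. In bulk tissue, fewer cells of a type and less RNA per cell cannot be told apart. The labels do not say that replicates were separate animals or cultures. The p-values then measure only the spread between these samples, and that spread may be technical. Among markers of other cells, all 10 tested markers of endothelium were lower in ISRIB (median log2 fold change −0.16), where 48.2% of all genes tested were lower. The groups did not overlap for 5 of the 10. Of 12 granulosa markers 7 were higher and 5 lower (median 0.11), and the groups did not overlap for 1. The medians were 0.04 for 9 markers of stroma and theca, 0.02 for 15 of proliferation and −0.20 for 5 of immune cells. Their part in the results was not tested.

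The prophase genes differed widely in level, also among genes of the same role. Per length, 6 members had a mean of at least 10 FPKM over the 6 libraries: Sycp3, Syce2, Smc1b, Tex15, Syce1 and Zcwpw1. The first 5 of these made up 67.6% to 70.1% of the summed FPKM of all members in each library. At the other end, 13 members had a mean below 1 FPKM, with 0 to 95 reads in any library. They included the break enzyme Spo11, its partners Mei1 and Mei4, and the entry factors Stra8 and Meioc. FPKM depend on the gene length used by the authors, which for the members was 0.353 to 2.82 times the exonic length in GENCODE M21, so the order of levels can shift with the gene model. Those extremes were Syce2 and Rec114.

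**Figure D1:**
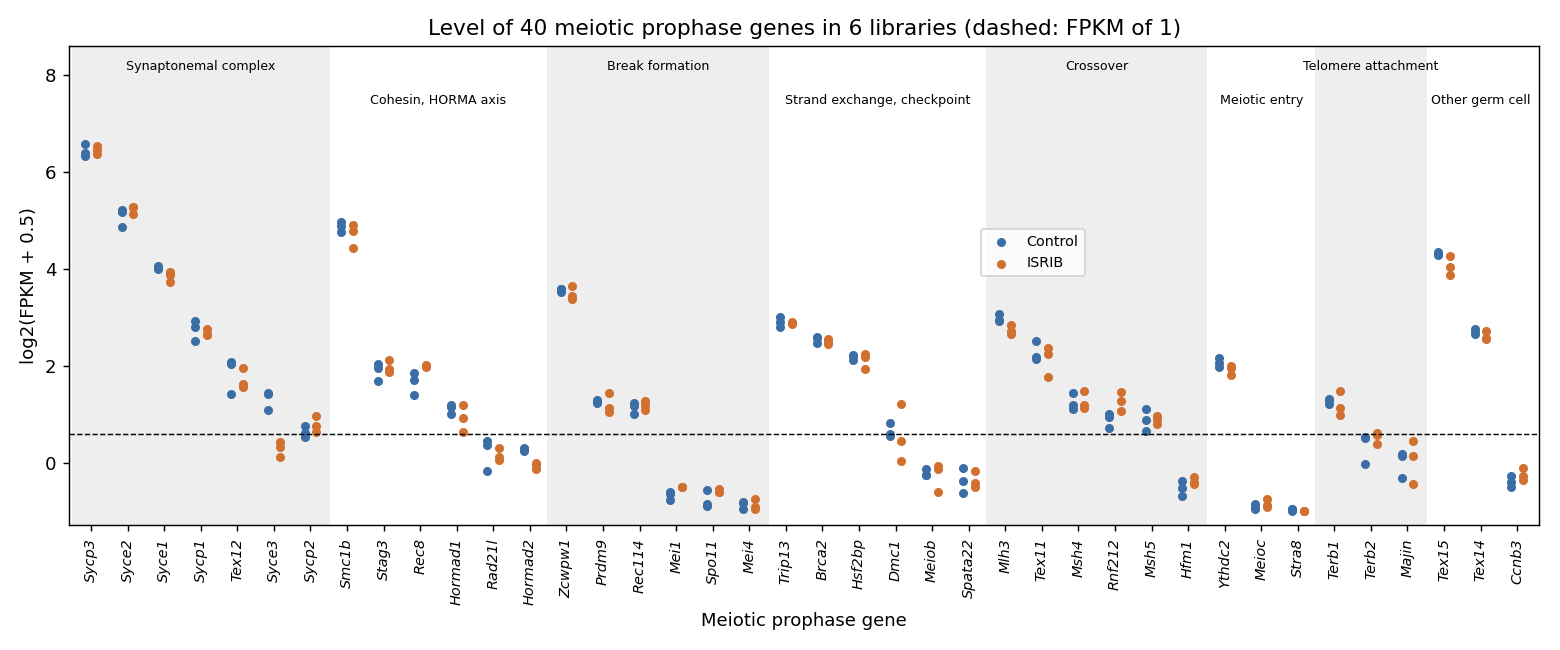
Level of each of the 40 meiotic prophase genes, as log2(FPKM + 0.5), in the 3 Control (blue) and 3 ISRIB (orange) libraries, grouped by role and sorted by mean level. Each point is a library and the dashed line marks 1 FPKM. Sycp3 is the highest member in every library, Stra8 lies at the bottom, and the 2 groups of points coincide or overlap for most genes.

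No prophase gene passed the test between ISRIB and Control. The test was limma on log2(FPKM + 0.5), with p-values adjusted by Benjamini-Hochberg over the 12922 genes whose mean was at least 1 FPKM. Of the 27 members tested 0 had a limma adjusted p under 0.05, where 0 of all genes tested did (0%). At an unadjusted p under 0.05 there were 6 members, where 16.4% of all genes tested reached that level. Of these 2 were higher in ISRIB (8.71% of all genes) and 4 lower (7.73%). Voom, limma with weights from read numbers, called 0 members on the recovered reads, where it called 0.929% of all genes. The groups did not overlap for 6 members, where 22.8% of all genes did not: ISRIB was above in all libraries for 2 (10.8% of all genes) and below for 4 (12% of all genes). The log2 fold change was below 0 for 18 of the 27 members, where 48.2% of all genes tested lay below 0. The median of the members was −0.07 and that of all genes tested was 0.01. After TPM rescaling 21 members lay below 0, the median of the members was −0.12, and that of all genes was −0.05. The median was −0.03 without ISRIB replicate 3 and −0.13 without ISRIB replicate 2.

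**Figure D2:**
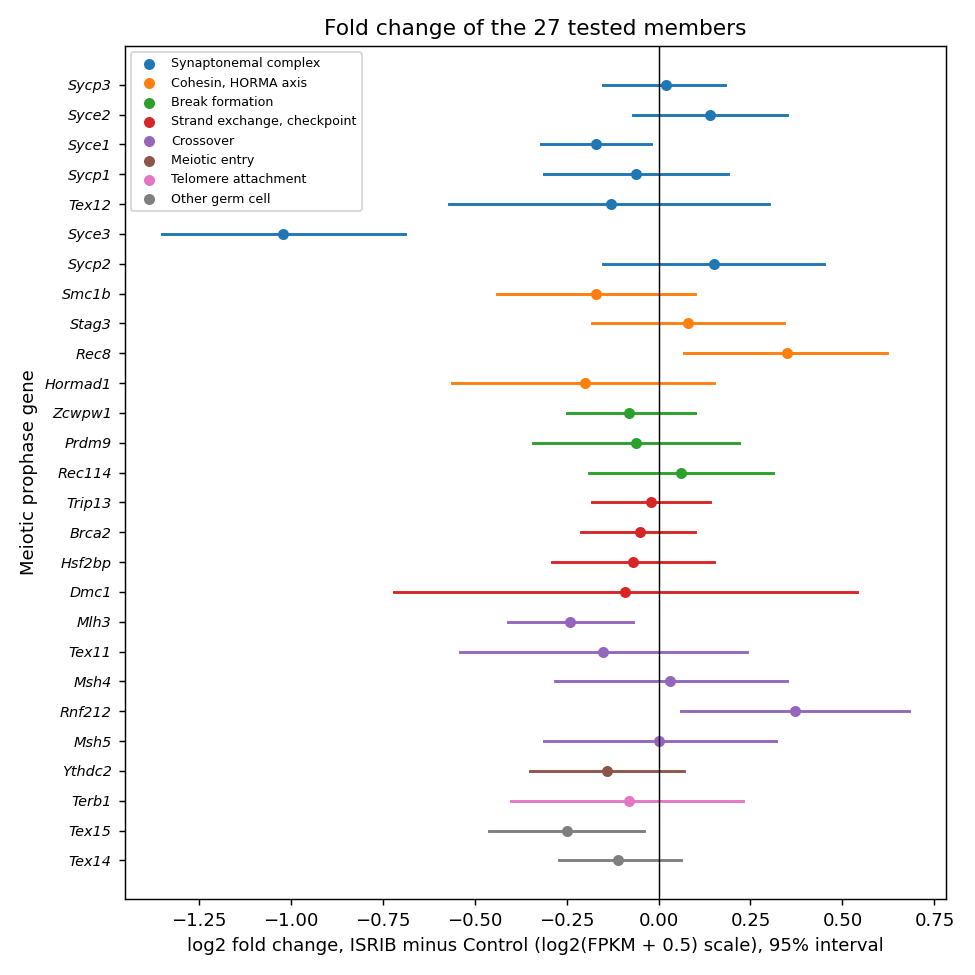
Log2 fold change of the 27 tested members, ISRIB minus Control on the log2(FPKM + 0.5) scale, with 95% intervals from limma and colors for the role. The point of Syce3 lies far to the left at −1.02, those of Rec8 and Rnf212 lie to the right at 0.35 and 0.37, and most intervals include 0.

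Among the synaptonemal complex genes, Syce3 had the lowest fold change of the 7, all of which were tested. Its product is a small protein of the central element, which links the paired axes. Syce3 had 1.61, 2.21 and 2.16 FPKM in Control and 0.845, 0.582 and 0.751 in ISRIB. All ISRIB libraries lay below all Control libraries. The reads behind these values were few, with 31, 47 and 46 in Control and 17, 12 and 15 in ISRIB. The log2 fold change was −1.02 (SE 0.144, 95% interval −1.35 to −0.69, unadjusted p = 1.08e-04, limma adjusted p = 0.0799). Of the 12922 genes tested 3 had a log2 fold change of −1 or lower, which is 0.0232%. Over the alternatives the log2 fold change ranged from −1.44 to −0.79 and the adjusted p from 0.0525 to 0.274. The means were 1.99 ± 0.337 FPKM in Control and 0.726 ± 0.133 in ISRIB (SD, n = 3 each).

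The other central element genes had log2 fold changes nearer to 0, and the difference from Syce3 was not tested. Syce2 had 28.8, 35.5 and 36.6 FPKM in Control and 34.5, 38.2 and 38.1 in ISRIB, with a log2 fold change of 0.14 (95% interval −0.07 to 0.35, limma adjusted p = 0.481). The low Control value was that of replicate 1. Syce1 had 16.1, 15.6 and 15.5 FPKM in Control and 14.2, 14.9 and 12.8 in ISRIB. Its groups did not overlap, and the log2 fold change was −0.17 (SE 0.0639, limma adjusted p = 0.245). Tex12, the partner of SYCE2 in the central element, had 2.18, 3.71 and 3.58 FPKM in Control and 2.45, 3.39 and 2.56 in ISRIB. Its groups overlapped, and the interval of its log2 fold change was wide, from −0.57 to 0.30.

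Sycp3 and Sycp2 code for the lateral elements and Sycp1 for the transverse filaments that bridge them. Sycp3, the most abundant member, had 83.5, 95.04 and 79.6 FPKM in Control and 92.2, 86.5 and 81.9 in ISRIB. The groups overlapped, and the log2 fold change was 0.02 (95% interval −0.15 to 0.18, limma adjusted p = 0.934), or −0.04 after TPM rescaling, −0.03 after quantile normalization and −0.07 after removal of the trend with gene length. Sycp1 had 7.13, 6.43 and 5.18 FPKM in Control and 5.81, 6.23 and 5.70 in ISRIB, which gave a log2 fold change of −0.06. Sycp2 had 1.18, 1.02 and 0.949 FPKM in Control and 1.04, 1.44 and 1.19 in ISRIB, which gave a log2 fold change of 0.15. Both overlapped between the groups.

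Some letters that had no part in the choice of members were found more often in promoters of the prophase genes than over all genes. The difference was not tested. RefSeq windows (GRCm38.p6) from 250 bases before to 50 after a start were at hand for 33 of the 40 members. E2F6 and the E-box binding pair MGA and MAX belong to a repressor complex that keeps germ cell genes silent in other cells, and STRA8 binds promoters of meiotic genes at entry. The letters searched on both strands were GCGGGAA for E2F factors, CACGTG for the E-box and CNCCTCAG for STRA8. The E2F letters were found in 15 of 33 members (45.5%) and in 5.29% of the 27025 genes with a window. The E-box was found in 8 members (24.2%, against 8.09% of all genes) and the STRA8 letters in 7 (21.2%, against 9.12%). Member windows are rich in CpG, with a median of 19 against 7 in all windows. Among windows with 15 to 24 CpG, the E2F letters were in 7 of 20 member windows (35%) and in 8.13% of all 5325 such windows. In the same CpG range the E-box was in 5 of 20 (25%, against 10.6%) and the STRA8 letters were in 3 of 20 (15%, against 9.41%). These matches describe the sequence and say nothing of binding. The 250 bases before the start are shown for 3 members with a match and for Syce3, the member with the lowest fold change, 5′ to 3′ on the strand of the gene with matches in capitals.
Sycp3 (chr10:88459337-88459586, plus strand): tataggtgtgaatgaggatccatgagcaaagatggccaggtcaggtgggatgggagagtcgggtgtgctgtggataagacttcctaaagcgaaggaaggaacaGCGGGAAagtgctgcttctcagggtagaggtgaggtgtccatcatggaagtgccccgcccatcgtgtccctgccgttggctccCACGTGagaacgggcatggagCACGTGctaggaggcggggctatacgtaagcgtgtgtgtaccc
Hormad1 (chr3:95559427-95559676, plus strand): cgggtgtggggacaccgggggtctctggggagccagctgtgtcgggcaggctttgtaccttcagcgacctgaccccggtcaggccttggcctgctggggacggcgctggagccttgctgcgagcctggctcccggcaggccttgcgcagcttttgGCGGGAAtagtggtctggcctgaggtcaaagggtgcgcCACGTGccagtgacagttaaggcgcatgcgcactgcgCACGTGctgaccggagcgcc
Smc1b (chr15:85131958-85132207, minus strand): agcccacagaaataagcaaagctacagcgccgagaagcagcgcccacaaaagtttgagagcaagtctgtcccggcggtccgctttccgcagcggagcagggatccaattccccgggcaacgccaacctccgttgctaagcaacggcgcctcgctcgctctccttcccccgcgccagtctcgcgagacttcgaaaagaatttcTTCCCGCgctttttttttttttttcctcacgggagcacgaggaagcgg
Syce3 (chr15:89410264-89410513, minus strand): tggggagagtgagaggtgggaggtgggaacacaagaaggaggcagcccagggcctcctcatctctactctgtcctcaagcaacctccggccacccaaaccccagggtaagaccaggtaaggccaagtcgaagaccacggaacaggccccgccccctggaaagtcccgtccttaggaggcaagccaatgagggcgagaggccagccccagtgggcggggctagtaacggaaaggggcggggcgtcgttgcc

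In these sequences Sycp3 and Hormad1 each have the E2F letters followed by a pair of E-boxes. Smc1b has the E2F letters on the opposite strand, where they read TTCCCGC, and Syce3 has none of the motifs in this window or in the window of its other start. Tested members with the E2F letters lay on both sides of 0, with 6 higher and 7 lower in ISRIB and log2 fold changes of −0.20 to 0.37. Of the 11 tested members that had a window without these letters, 3 were higher and 8 lower, from −1.02 to 0.35.

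The meiotic cohesins hold sister chromatids together along the axis to which the synaptonemal complex attaches. Smc1b, the meiosis-specific core subunit, had 26.8, 30.7 and 29.0 FPKM in Control and 29.3, 26.9 and 20.9 in ISRIB. The groups overlapped and the low value was that of ISRIB replicate 3. Its log2 fold change was −0.17 (95% interval −0.44 to 0.10, limma adjusted p = 0.494), and −0.03 without ISRIB replicate 3. Rec8, the kleisin subunit that is cleaved when chromosomes separate, had 3.08, 2.76 and 2.11 FPKM in Control and 3.50, 3.51 and 3.41 in ISRIB. All ISRIB libraries lay above all Control libraries, with a log2 fold change of 0.35 (SE 0.120, limma adjusted p = 0.223) and 0.22 without Control replicate 3. Stag3, another meiosis-specific cohesin subunit, had 3.60, 3.35 and 2.71 FPKM in Control and 3.17, 3.81 and 3.30 in ISRIB, with groups that overlapped. Rad21l, a kleisin of early prophase, had 0.388, 0.787 and 0.858 FPKM in Control and 0.726, 0.531 and 0.587 in ISRIB, or 39 to 95 reads, and was not tested.

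HORMAD1 and HORMAD2 mark axes that have not yet synapsed. Hormad1 had 1.51, 1.78 and 1.72 FPKM in Control and 1.40, 1.77 and 1.04 in ISRIB, which gave a log2 fold change of −0.20 (limma adjusted p = 0.546) with overlapping groups. Hormad2 had 0.677, 0.718 and 0.735 FPKM in Control and 0.492, 0.470 and 0.416 in ISRIB. Every ISRIB library lay below every Control library, with 66, 77 and 79 reads against 50, 49 and 42. Of all genes tested 12% lay below in this way. The mean of Hormad2 was under 1 FPKM, so it was tested only without the filter on low values, where the log2 fold change was −0.34 (unadjusted p = 0.00792, limma adjusted p = 0.293). The spread of Hormad2 between replicates was no larger than counting alone gives, with a chi-square per degree of freedom of 0.127 in Control and 0.334 in ISRIB, where 1 stands for counting error.

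Of the 6 genes of break formation Zcwpw1 was the highest, and Prdm9 and Rec114 were lower. Spo11, Mei1 and Mei4 had a mean under 1 FPKM and were not in the main test. Zcwpw1, which reads the histone marks that PRDM9 sets, had 11.0, 11.5 and 11.5 FPKM in Control and 10.4, 11.97 and 9.89 in ISRIB, which gave a log2 fold change of −0.08. Prdm9, the histone methyltransferase that places the sites of breaks, had 1.83, 1.93 and 1.92 FPKM in Control and 1.55, 2.20 and 1.68 in ISRIB, which gave a log2 fold change of −0.06. Rec114, a partner of the break enzyme, had 1.505, 1.83 and 1.73 FPKM in Control and 1.92, 1.79 and 1.62 in ISRIB, which gave a log2 fold change of 0.06. All 3 overlapped between the groups. Rec114 shares 344 exonic bases on the opposite strand with Nptn, which had a Control mean of 61.8 FPKM, and Sycp3 shares 660 with Chpt1, so their reads are uncertain unless the counting used strand, which is not stated.

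Spo11, whose product cuts the DNA, had 6, 5 and 22 reads in Control against 19, 19 and 22 in ISRIB. Mei1 had 29, 17 and 29 reads in Control against 40 in each ISRIB library, so its groups did not overlap, at 0.126 ± 0.0382 and 0.203 ± 0.00335 FPKM (SD, n = 3 each). With Hormad2 this made 2 of the 13 members under 1 FPKM, where 22.8% of all genes tested did not overlap. Without the filter Mei1 had a log2 fold change of 0.17 (unadjusted p = 0.0264, limma adjusted p = 0.403). Mei4 had 3, 16 and 14 reads in Control against 21, 4 and 7 in ISRIB. At this depth differences in Spo11 and Mei4 were within the spread between replicates.

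By the coefficient of variation, Dmc1 varied more between the ISRIB replicates than any other tested member. It codes for the recombinase that carries out strand exchange between homologous chromosomes. Dmc1 had 1.002, 0.968 and 1.254 FPKM in Control and 0.523, 0.854 and 1.81 in ISRIB. The lowest and the highest of the 6 values were both ISRIB libraries, with 43 reads in replicate 1 and 148 in replicate 3. Its coefficient of variation was 63.0% in ISRIB and 14.5% in Control, and the chi-square per degree of freedom was 34.7 and 1.95. The log2 fold change was −0.09 (95% interval −0.72 to 0.54), or 0.17 without ISRIB replicate 1 and −0.42 without ISRIB replicate 3.

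**Figure D3:**
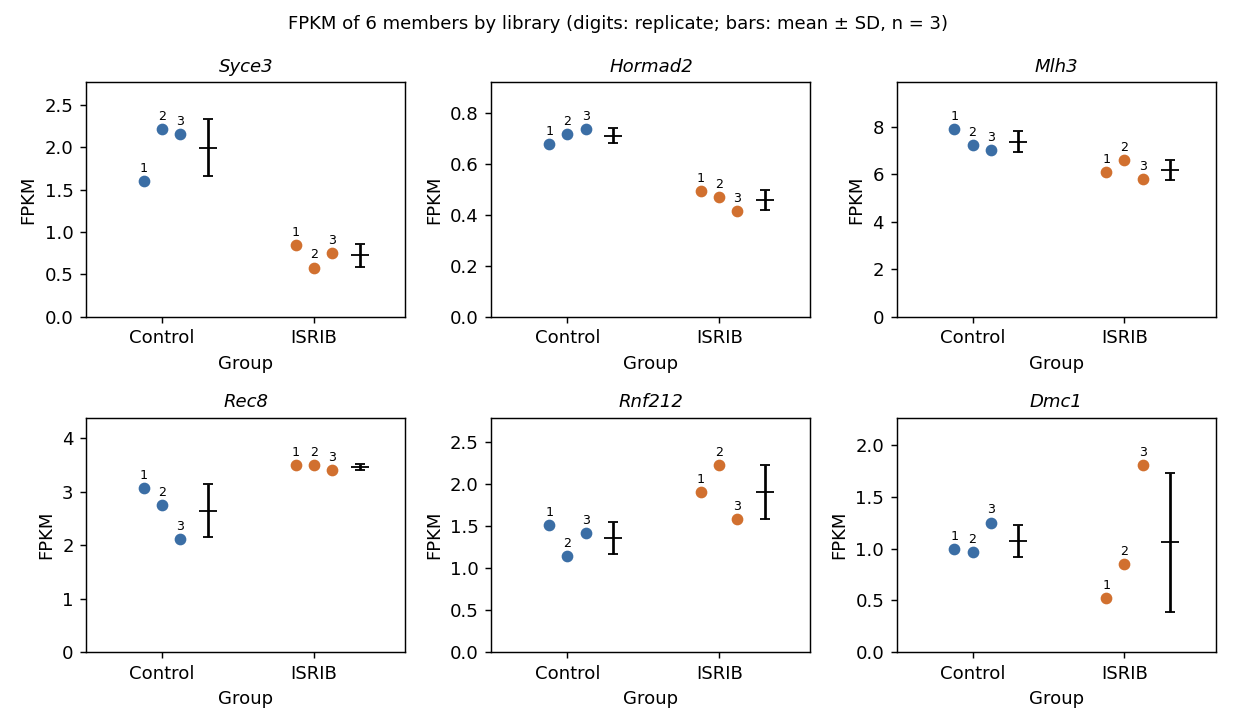
FPKM of Syce3, Hormad2, Mlh3, Rec8, Rnf212 and Dmc1 in each library on axes that start at 0, with replicate numbers beside the points and the mean ± SD of each group (n = 3). Control and ISRIB points do not overlap in the first 5 genes, and the ISRIB points of Dmc1 spread from 0.523 to 1.81 FPKM around the Control points.

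The other tested strand exchange genes overlapped between the groups. Trip13, an ATPase that takes HORMA proteins off the axis, had 6.45, 6.995 and 7.499 FPKM in Control and 6.84, 7.004 and 6.75 in ISRIB (log2 fold change −0.02, 95% interval −0.18 to 0.14). Brca2, which loads recombinases onto single-stranded DNA, had 5.45, 5.50 and 5.06 FPKM in Control and 5.32, 4.99 and 5.08 in ISRIB (−0.05, 95% interval −0.21 to 0.10, and 0.01 after removal of the length trend). Hsf2bp, whose product brings BRCA2 to meiotic breaks, had 4.17, 4.12 and 3.86 FPKM in Control and 4.03, 4.23 and 3.34 in ISRIB (−0.07, 95% interval −0.29 to 0.15). Meiob and Spata22, whose products bind single-stranded DNA together, had 12 to 43 reads per library and were not tested. Spata22 shares 1025 exonic bases, 80.5% of its own, with Gm49340 on the same strand, so its reads are uncertain whatever the strand setting. Meiob had 12 reads in ISRIB replicate 3 and 24 to 35 in the other libraries.

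Among crossover genes Mlh3 and Rnf212 lay on opposite sides. Mlh3, a nuclease subunit of meiotic crossover formation, had 7.90, 7.22 and 7.03 FPKM in Control and 6.11, 6.62 and 5.79 in ISRIB. All ISRIB libraries were below all Control libraries, with a log2 fold change of −0.24 (SE 0.0745, unadjusted p = 0.0121, limma adjusted p = 0.187). Rnf212, a ligase that stabilizes crossover sites, had 1.51, 1.14 and 1.42 FPKM in Control and 1.91, 2.23 and 1.58 in ISRIB. All ISRIB libraries were above, with 105 to 131 reads in Control against 137 to 199 in ISRIB, which gave a log2 fold change of 0.37 (SE 0.136, limma adjusted p = 0.240). The length behind the FPKM was 5842 bases for Mlh3 and 2423 for Rnf212, against a median of 3548 over the genes tested, and after removal of the trend with gene length their log2 fold changes were −0.21 and 0.33.

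The MutS pair that holds crossover intermediates showed no separation. Msh4 had 1.76, 2.19 and 1.65 FPKM in Control and 1.79, 2.30 and 1.69 in ISRIB (log2 fold change 0.03, 95% interval −0.28 to 0.35, and −0.01 after TPM rescaling). Msh5 had 1.64, 1.07 and 1.35 FPKM in Control and 1.23, 1.37 and 1.43 in ISRIB (0.00, 95% interval −0.31 to 0.32, with −0.04 after TPM rescaling and −0.00 after quantile normalization). Tex11, an X-linked crossover factor, had 4.003, 5.18 and 3.89 FPKM in Control and 4.63, 4.25 and 2.89 in ISRIB, and its low value was again ISRIB replicate 3. Hfm1, a helicase, had 24 to 62 reads in Control against 51 to 68 in ISRIB.

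Of the 3 members that act at meiotic entry, Stra8 and Meioc had 0 to 16 reads per library and Ythdc2 was tested. Stra8, which starts meiosis on a retinoic acid signal, had 0, 1 and 1 reads in Control against 0 in every ISRIB library. A count of 0 allows up to 3 reads per library, so no difference was detectable. Meioc, which sustains early prophase, had 3, 5 and 10 reads in Control against 5, 16 and 8 in ISRIB. Ythdc2, the RNA helicase that is MEIOC's partner, had 3.40, 3.97 and 3.65 FPKM in Control and 3.49, 3.37 and 2.98 in ISRIB, which gave a log2 fold change of −0.14 (limma adjusted p = 0.467) with overlapping groups.

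The telomere anchors MAJIN, TERB1 and TERB2 tie chromosome ends to the nuclear envelope. Terb1 had 1.997, 1.95 and 1.82 FPKM in Control and 1.69, 2.27 and 1.46 in ISRIB, with overlapping groups and a log2 fold change of −0.08. Terb2 had 39 to 76 reads in Control against 61 to 78 in ISRIB. Majin had 24, 55 and 52 reads in Control against 49, 73 and 19 in ISRIB, so the lowest and the highest values were both in ISRIB.

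Tex15, needed to silence transposons in germ cells, was the member with the most reads, 6639, 7232 and 7641 in Control and 5798, 6937 and 5106 in ISRIB. It had 19.1, 18.9 and 19.98 FPKM in Control and 16.02, 18.7 and 14.2 in ISRIB. The groups did not overlap, by a small gap at ISRIB replicate 2, and the log2 fold change was −0.25 (SE 0.0912, limma adjusted p = 0.241), or −0.19 after removal of the length trend. Tex14, which holds the bridges between sister germ cells open, had 6.18, 6.29 and 5.83 FPKM in Control and 5.35, 6.08 and 5.47 in ISRIB, which gave a log2 fold change of −0.11 with overlapping groups. Ccnb3, a cyclin of the first meiotic division in oocytes, had 33 to 58 reads in Control against 46 to 69 in ISRIB.

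A single library, ISRIB replicate 3, held the lowest value for 10 of the 27 tested members, where 23.1% of all genes tested were lowest there. Summed over all members, the level was 258, 283 and 263 FPKM in Control and 266, 272 and 243 in ISRIB. The sum divided by the FPKM of Ddx4 was 16.2, 17.4 and 16.6 in Control and 16.5, 16.4 and 15.4 in ISRIB. ISRIB replicate 3 was the lowest on each of these scales. The same library was lowest for 10 of the 17 general oocyte markers and for 2 of 13 markers of growing oocytes. The part of these markers in the members' values was not tested. The sums of the 17 general oocyte markers were 1957 to 2194 FPKM in Control and 2112 to 2319 in ISRIB, mostly Padi6 and Zp3. Those of the growing oocyte markers were 1558 to 1751 and 1699 to 1956, and no marker of either list was at 0. Dmc1 went the other way, with its highest value in ISRIB replicate 3.

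**Figure D4:**
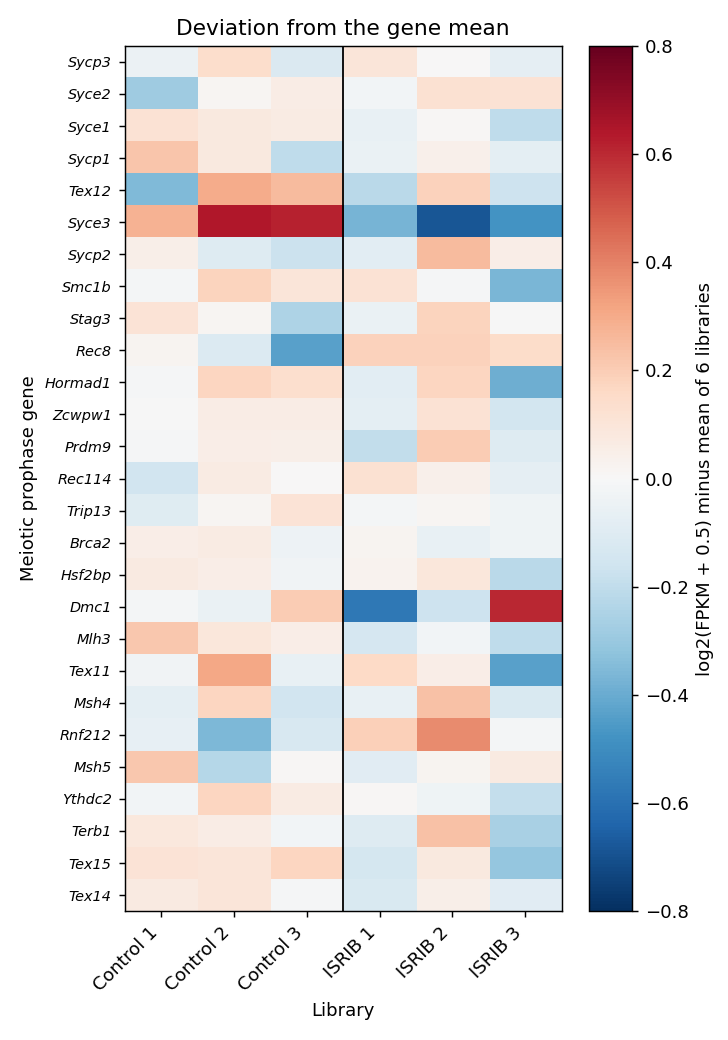
Deviation of each tested member in each library from the mean of its 6 libraries, in log2(FPKM + 0.5), with blue below and red above the mean, rows grouped by role and a line between Control and ISRIB. Syce3 is red in all Control and blue in all ISRIB libraries, and the column of ISRIB replicate 3 is blue for most genes with Dmc1 as a red exception.

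Genes that work beside the members were compared in the same fit. Of 48 other synapsis and recombination genes in the table, 40 were tested, 13 higher and 27 lower (67.5%, against 48.2% of all genes tested). Their median log2 fold change was −0.02. None of them passed in limma, and 2 higher and 4 lower had an unadjusted p under 0.05, where 8.71% and 7.73% of all genes tested did. Those with the smallest p were Rad50, a subunit of the complex that trims broken ends (17.9 ± 0.374 and 15.5 ± 0.787 FPKM, SD, n = 3 each, log2 fold change −0.21, limma adjusted p = 0.134), Cdk2, Atm and Mdc1. Cdk2, a kinase found at meiotic telomeres and crossovers, had 18.9, 19.6 and 19.4 FPKM in Control and 21.8, 21.3 and 22.6 in ISRIB, which gave a log2 fold change of 0.17 (limma adjusted p = 0.136). Atm, the kinase that answers DNA breaks, and Mdc1, which spreads its signal over chromatin, had log2 fold changes of −0.20 and −0.17 with all ISRIB libraries below all Control libraries. Over the list the groups did not overlap for 9 of the 40, where 22.8% of all genes tested did not. The break-response genes Rad50, Atm and Mdc1 are expressed in most cells.

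Of 31 genes of prophase arrest and meiotic resumption 29 were tested, 19 higher and 10 lower (34.5%, against 48.2% of all genes tested). The median was 0.03 and 0 were past the limma threshold. At an unadjusted p under 0.05 in limma 2 were higher and 1 lower, where 8.71% and 7.73% of all genes tested were. Fbxo5, an inhibitor of the anaphase-promoting complex, had 7.40, 6.61 and 8.07 FPKM in Control and 9.29, 8.76 and 8.51 in ISRIB (log2 fold change 0.25, limma adjusted p = 0.192). Fzr1, an activator of that complex, had 73.5, 72.9 and 74.8 FPKM in Control and 70.6, 69.5 and 62.1 in ISRIB (−0.13, limma adjusted p = 0.293). Nppc, the granulosa cell peptide that holds oocytes in arrest, had 8.28, 10.8 and 10.2 FPKM in Control and 22.3, 11.6 and 14.6 in ISRIB (0.66, limma adjusted p = 0.193). Adcy3, an adenylate cyclase of the oocyte, had a log2 fold change of −0.11. These 4 genes were named for the smallest p of the list, and in each the groups did not overlap. Over the list the groups did not overlap for 5 of the 29, where 22.8% of all genes tested did not. For Nppc ISRIB replicate 2 lay just above Control replicate 2.

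Of 33 regulators of meiotic entry 24 were tested, 11 higher and 13 lower (54.2%, against 48.2% of all genes tested). The median was −0.01 and 0 were past the limma threshold. Aldh1a1, which makes retinoic acid, had 52.4, 57.5 and 47.5 FPKM in Control and 42.1, 48.1 and 38.9 in ISRIB (log2 fold change −0.28, limma adjusted p = 0.201), with groups that overlapped. Aldh1a2, another such enzyme, had a log2 fold change of 0.06. Pcgf6, a subunit of the complex that represses germ cell genes, had 14.5, 15.1 and 13.6 FPKM in Control and 15.1, 15.6 and 16.4 in ISRIB (0.12, limma adjusted p = 0.345). Meiosin, the partner of STRA8, had 3.31, 3.10 and 3.31 FPKM in Control and 3.003, 3.11 and 1.75 in ISRIB (−0.29, limma adjusted p = 0.443). Its groups overlapped and its low value was ISRIB replicate 3.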

How the data were processed

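Total RNA of cultured mouse ovary was isolated on columns and made into libraries with a universal RNA-seq kit, per the labels' protocols. The values deposited by the authors are FPKM for each gene and library. The submitters' processing notes list the build mm10 and the tools DESeq2, HTSeq, HISAT2, fastp and R 3.2.0, without roles. The sources used here do not give the annotation or the strand setting. The FPKM of a gene moves in steps worth 1 read, so read numbers could be recovered, for 100% of genes (tolerance 0.01 read, largest distance 4.7e-05). Simulation returned 98.18% of 5774 genes exactly. Gene lengths are those implied by these factors.

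The test, on genes whose mean was 1 FPKM or more, was limma 3.58.1 in R 4.3.3 on log2(FPKM + 0.5), with an intensity trend, two-sided, at a Benjamini-Hochberg adjusted p under 0.05. This scale understates changes of low genes. A simulated ISRIB against Control comparison had 12922 genes, of which 81 of 100 genes changed by 0.5 (log2) and 97 of 100 changed by 1 were called, along with 8 unchanged genes. Its noise was normal and independent between genes and libraries, so these shares can overstate what the real libraries allow. Groups came from the sample titles. All members are accounted for, and up to 4 genes with the smallest p are named from each list of neighbouring genes. The members and lists were chosen with earlier results of these data known. Positions and exonic overlaps were read from GENCODE M21 on GRCm38, which is mm10. Scripts ran in Python 3.11.15 with pandas 2.3.3 and matplotlib 3.10.9. Replicate numbers were not taken as pairs of libraries in the main test, and whether the libraries were paired is not known. No 2 replicates agreed within sampling noise (chi-square per gene of 8.93 to 23.1).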

Additional observations from a re-analysis of the deposited data

How the results depend on the processing

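Of 416 values of single members under 16 alternatives, 392 kept their direction and 24 had the opposite sign, and 0 passed the threshold. The members called stayed at 0 in all of them. The alternatives were pseudocounts of 0.1 and 1, no filter, a mean FPKM of at least 5 (11 members left), TPM rescaling, quantile normalization, removal of a loess trend on gene length (span 0.5), no intensity trend, voom on the recovered reads, the replicate block and leaving out each library. Over all genes tested, 8 were called with a mean FPKM of at least 5, 120 (40 higher, 80 lower) in voom and 11 (9 higher, 2 lower) with the replicate block, against 0. Same-numbered libraries had correlations of deviations of −0.190, −0.091 and 0.192, and libraries of other numbers −0.337 to 0.355. With 3 libraries per group these values cannot exclude a pairing. The numbers were not taken as pairs in the main test, and the block changed no call of a member. The median of the members was −0.13 to −0.03 over the alternatives. Opposite signs came with TPM rescaling in Msh4 (−0.01), Msh5 (−0.04) and Sycp3 (−0.04), with quantile normalization in Msh5 (−0.00) and Sycp3 (−0.03), and with the length trend removed in Brca2 (0.01) and Sycp3 (−0.07). The cause was not tested. When single libraries were left out, the log2 fold change ranged from −0.42 to 0.17 for Dmc1, −0.27 to 0.03 for Tex11, −0.22 to 0.02 for Terb1, −0.18 to 0.03 for Sycp1, −0.18 to 0.02 for Prdm9, −0.13 to 0.02 for Hsf2bp, −0.11 to 0.11 for Msh5, −0.07 to 0.13 for Msh4, −0.07 to 0.03 for Trip13, −0.04 to 0.09 for Sycp3, −0.02 to 0.16 for Stag3 and −0.00 to 0.11 for Rec114. Brca2 kept its sign when single libraries were left out, from −0.09 to −0.03. The other 14 tested members kept their sign in every alternative, but single libraries moved several of them by over 1.5 times. The log2 fold change was 0.03 for Syce2 and −0.34 for Tex12 without Control replicate 1, −0.02 for Tex12 without Control replicate 2, 0.06 for Sycp2 without ISRIB replicate 2, and −0.06 for Hormad1, −0.02 for Zcwpw1 and −0.11 for Syce1 without ISRIB replicate 3. Depth limits the 13 members with a mean under 1 FPKM, which had 0 to 95 reads per library.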

Other observations

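The pair of transcription factors that start meiosis were at unlike levels. Stra8 had 2 reads in all 6 libraries together, while Meiosin had 1.75 to 3.31 FPKM in each. Several abundant members varied between replicates of a group far beyond read counting. In ISRIB the chi-square per degree of freedom was 114 for Tex15, 107 for Smc1b and 27.8 for Tex11, and in Control it was 31.9 for Sycp3 and 20.6 for Sycp1. This measure grows with the number of reads, so it does not rank members of unlike depth.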
